A study of Mus musculus with 6 samples.

Results

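The T and NK lymphocyte marker genes are 10 genes, chosen by symbol, that identify T cells and natural killer (NK) cells in mixed tissue: Cd3d, Cd3e, Cd3g, Cd4, Cd8a, Lck, Cd2, Nkg7, Gzma and Klrk1. All 10 had a row in the table of 19087 genes. Whole-kidney RNA was sequenced from wild-type (WT) mice, 3 libraries from mice injected intraperitoneally with cisplatin, a platinum drug that damages DNA and injures the tubule, and 3 from control mice. The sources used here give no dose, time after injection, age, sex, strain or diet, and do not say what the controls received or whether each library is a separate animal; p-values therefore measure the spread between these libraries, which may be technical. Library totals ran between 16725665 and 18523666 estimated counts, and the tubule injury gene Havcr1 stood at 976 ± 519 CPM in cisplatin and 2.67 ± 0.54 CPM in controls (CPM, counts scaled to library size with TMM factors; SD, n = 3 each).

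T cells recognise peptides through a receptor that signals by way of the CD3 chains, and the co-receptors CD4 and CD8 separate helper from cytotoxic T cells. The kinase LCK, bound to the co-receptors, phosphorylates the CD3 chains and so starts the signal. NK cells and cytotoxic T cells kill with granules that hold granzymes and perforin, and the receptor NKG2D, encoded by Klrk1, lets them recognise stressed cells. In kidney tissue these cells are a small resident and circulating population among a large excess of tubule epithelium.

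All 10 markers had a lower mean level in cisplatin kidneys than in control kidneys. The pooled count ratios, cisplatin over control, ran between 0.144 for Cd3g and 0.588 for Cd8a. The counts were low: the 10 genes together held 120.55, 133.17 and 121.25 estimated counts in cisplatin replicates 1 to 3, against 331.17, 190.03 and 452.16 in control replicates 1 to 3. Only 6 of the 10 passed the filter on low counts, and they could do so through the control libraries alone, so the number called among them is a description. The quasi-likelihood test of edgeR, with calls made at a Benjamini-Hochberg adjusted p under 0.05, called 5 of the 6 lower in cisplatin and left 1, Cd8a, without a call; of all 14392 genes tested, 22.2% were called lower. None of the 6 was called higher by edgeR, at an unadjusted p under 0.05 (0 genes), by DESeq2 (0) or by limma on FPKM (0), against 23.1% of all genes called higher. The median log2 fold change of the 6 was -1.92, against 0.01 for all genes tested. The markers were chosen with earlier results of these data known, so these contrasts with all genes are descriptions too. In bulk tissue, fewer T and NK cells and less of these RNAs per cell cannot be told apart.

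The CD3 genes lie within 40092 bases on chromosome 9, and the starts of Cd3g and Cd3d face away from each other at a distance of 1338 bases. RefSeq promoters (GRCm38.p6, 250 bases before and 50 after the annotated start) were found for 8 of the 10 genes, 9 promoters in all because Lck has 2 starts. The promoters of Cd3g and Cd3d are shown for this head-to-head arrangement, those of Nkg7 and Gzma as the granule genes. Capitals mark the E-box CACCTG, a form bound by E proteins of lymphocytes, and the RUNX core TGTGGT, on either strand; neither motif overlaps the other.
Cd3g, chr9:44980382-44980681, minus strand: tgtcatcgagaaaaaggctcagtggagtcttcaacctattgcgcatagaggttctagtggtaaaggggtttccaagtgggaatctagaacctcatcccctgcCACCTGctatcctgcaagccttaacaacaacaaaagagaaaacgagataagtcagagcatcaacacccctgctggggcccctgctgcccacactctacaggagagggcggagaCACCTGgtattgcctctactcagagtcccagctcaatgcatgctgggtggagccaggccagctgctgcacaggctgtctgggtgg
Cd3d, chr9:44981536-44981835, plus strand: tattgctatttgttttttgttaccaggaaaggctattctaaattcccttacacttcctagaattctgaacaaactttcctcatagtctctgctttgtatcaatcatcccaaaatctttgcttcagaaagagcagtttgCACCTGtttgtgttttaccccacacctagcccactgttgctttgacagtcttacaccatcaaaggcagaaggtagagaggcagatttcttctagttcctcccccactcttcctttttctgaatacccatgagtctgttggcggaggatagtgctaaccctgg
Nkg7, chr7:43436888-43437187, plus strand: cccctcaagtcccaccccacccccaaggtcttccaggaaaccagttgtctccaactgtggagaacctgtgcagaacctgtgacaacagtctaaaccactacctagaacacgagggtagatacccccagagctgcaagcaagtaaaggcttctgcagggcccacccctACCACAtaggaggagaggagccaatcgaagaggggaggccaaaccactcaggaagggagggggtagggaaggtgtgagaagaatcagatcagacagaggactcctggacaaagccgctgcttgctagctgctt
Gzma, chr13:113100932-113101231, minus strand: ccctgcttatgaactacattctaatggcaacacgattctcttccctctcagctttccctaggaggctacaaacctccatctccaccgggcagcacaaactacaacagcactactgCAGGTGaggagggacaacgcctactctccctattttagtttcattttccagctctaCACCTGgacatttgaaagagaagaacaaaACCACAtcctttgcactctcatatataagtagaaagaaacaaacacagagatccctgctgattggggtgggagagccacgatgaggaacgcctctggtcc
The E-box was in the promoters of Cd3d, Cd3e, Cd3g, Lck and Gzma (6 of the 9 promoters), against 20.2% of 32851 promoters of the same length in the table. The RUNX core was in those of Gzma, Klrk1, Lck and Nkg7 (4 of the 9), against 16.8% of all. In Cd3g the E-box began 148 and 35 bases before the start, and in Nkg7 the RUNX core began 83 bases before it. The motifs were chosen after these sequences were seen, and a match is no evidence of binding.

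Cd3g (gene ID 12502; GRCm38.p6 chromosome 9, 44969572 to 44980431, minus strand), which encodes the gamma chain of CD3, had the lowest ratio. It held 5, 5 and 6 counts in cisplatin replicates 1 to 3, against 32, 23 and 40 in control replicates 1 to 3. Every cisplatin library lay far below every control library. Its mean was 0.281 ± 0.0494 CPM in cisplatin and 1.95 ± 0.54 CPM in controls (SD, n = 3 each), and the log2 fold change was -2.77 with an SE of 0.35 (edgeR adjusted p = 0.000521).

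Cd3e (gene ID 12501; GRCm38.p6 chromosome 9, 44998735 to 45009663, minus strand), the epsilon chain, had 4, 0 and 6 counts in cisplatin, against 10, 8 and 20 in controls. The groups did not overlap. The gene was under the count filter and has no main test. The count of 0 in cisplatin replicate 2 allows a level of up to 0.152 CPM (3 counts). The pooled ratio was 0.224 (exact 95% interval 0.0996 to 0.459, counting error only).

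Cd3d (gene ID 12500; GRCm38.p6 chromosome 9, 44981769 to 44987052, plus strand), the delta chain, had 4.74, 6.66 and 6.12 counts in cisplatin and 21.87, 3 and 21 in controls. Control replicate 2 lay below all 3 cisplatin libraries, so the groups overlapped, unlike those of Cd3g and Cd3e. The pooled ratio was 0.333 (exact 95% interval 0.182 to 0.586). Without the count filter, which let 18313 genes be tested, Cd3e had an edgeR adjusted p of 0.0470 and Cd3d one of 0.0829.

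Cd4 (gene ID 12504; GRCm38.p6 chromosome 6, 124864693 to 124888247, minus strand) marks helper and regulatory T cells, and in mice also some dendritic cells. It had 22, 18 and 11 counts in cisplatin, against 41, 23 and 83 in controls. The groups did not overlap, but the controls were spread over a wide range. The means were 0.881 ± 0.246 CPM in cisplatin and 3.02 ± 1.93 CPM in controls (SD, n = 3 each), and its log2 fold change was -1.76 with an SE of 0.49 (edgeR adjusted p = 0.0211). Without control replicate 3, its highest library, the log2 fold change was -1.14 and the call was lost (edgeR adjusted p = 0.0544); it was also lost without cisplatin replicate 2 (0.0547) or 3 (0.0505) and on log2(FPKM + 1) (0.0624), over a range of 0.00169 to 0.0624 in all alternatives.

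Cd8a (gene ID 12525; GRCm38.p6 chromosome 6, 71373427 to 71379171, plus strand) marks cytotoxic T cells and, in mice, a class of dendritic cells. It had 30.81, 40.51 and 48.13 counts in cisplatin, against 57.3, 43.03 and 74.16 in controls. Cisplatin replicate 3 lay above control replicate 2 after scaling (2.71 against 2.63 CPM), so the groups overlapped. Its log2 fold change of -0.76 (SE 0.28) was not called (edgeR adjusted p = 0.0555), with a 95% interval of -1.40 to -0.12. The call turned with the setting: DESeq2 (0.0490), the fit with a replicate block (0.0499) and edgeR without cisplatin replicate 3 (0.0215) or control replicate 2 (0.0403) put Cd8a past the threshold, over a range of 0.0215 to 0.192.

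Cd8b1, the partner chain of Cd8a and a more strictly T cell gene, had 22.1, 18.02 and 19.9 counts in cisplatin, against 47.58, 31.52 and 69.48 in controls. It was called lower, and its log2 fold change was -1.54 with an SE of 0.32 (edgeR adjusted p = 0.00541). Whether the changes of Cd8a and Cd8b1 differ was not tested.

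**Figure D1:**
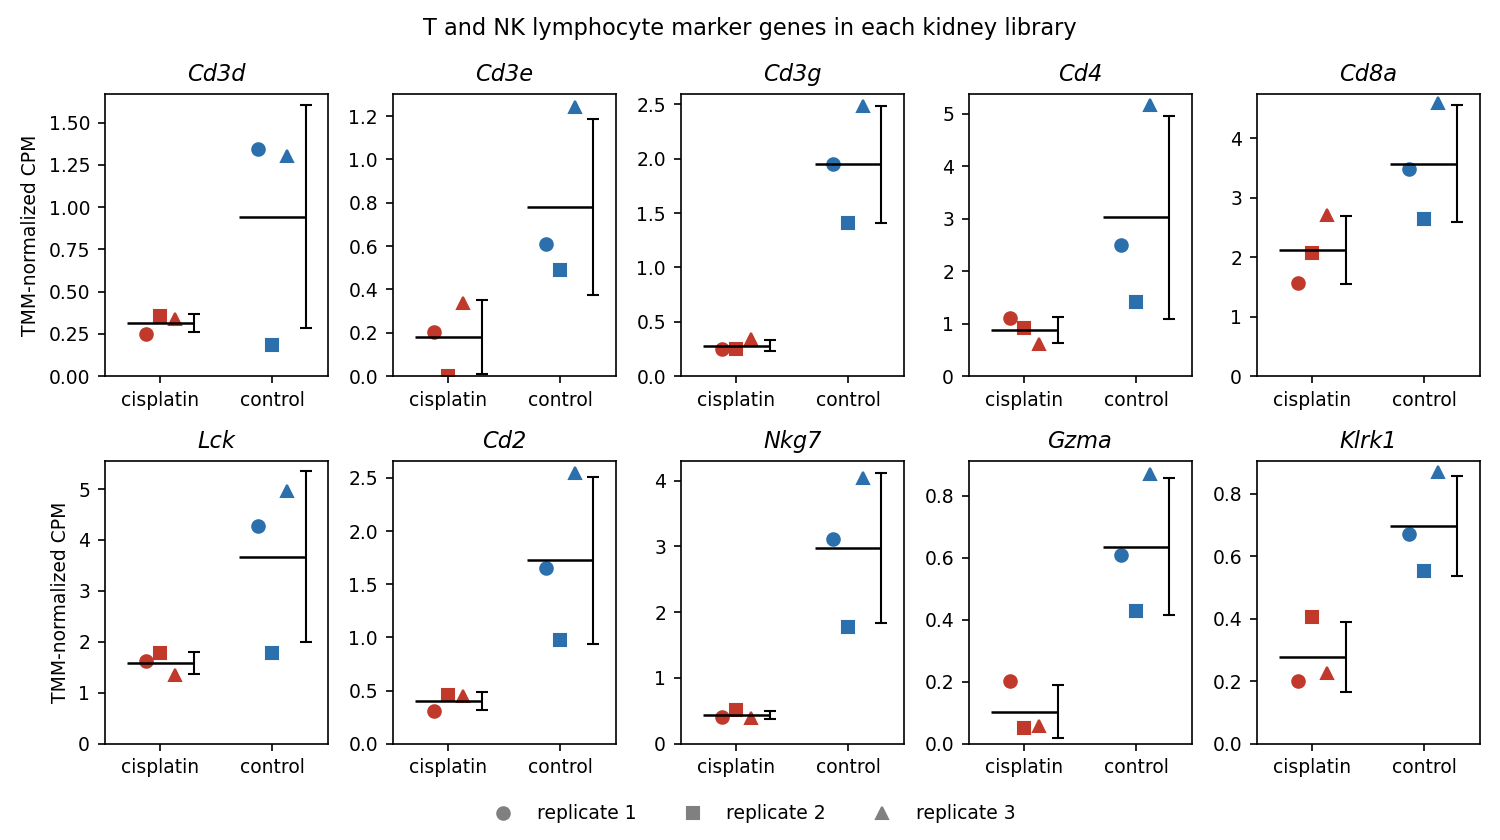
TMM-normalized CPM (vertical axes, each from 0) of the 10 T and NK marker genes in the 3 cisplatin and 3 control libraries; symbols give the replicate, horizontal lines the mean and bars the SD. Control replicate 2 is the lowest control for every gene, and the groups overlap for Cd3d and Cd8a.

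Lck (gene ID 16818; GRCm38.p6 chromosome 4, 129548344 to 129573641, minus strand) had 32, 35 and 24 counts in cisplatin, against 70, 29 and 80 in controls. After scaling, the highest cisplatin library and the lowest control library were almost level, at 1.77315 and 1.77568 CPM, while the other 2 controls stood at 4.27 and 4.97 CPM. Its log2 fold change was -1.21 (SE 0.37; edgeR adjusted p = 0.0275). The call was lost without control replicate 1 (edgeR adjusted p = 0.0911) or 3 (0.10), without cisplatin replicate 1 (0.0799) or 3 (0.0547), with the replicate block (0.0574) and by limma on log2(FPKM + 0.1) (0.0696) or log2(FPKM + 1) (0.0690), over a range of 0.00325 to 0.10.

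Cd2 (gene ID 12481; GRCm38.p6 chromosome 3, 101275908 to 101287939, minus strand), an adhesion molecule of T and NK cells that binds CD48 in mice, had 6, 9 and 8 counts in cisplatin, against 27, 16 and 41 in controls. No cisplatin library reached the lowest control. The means were 0.403 ± 0.087 CPM in cisplatin and 1.72 ± 0.79 CPM in controls (SD, n = 3 each), and its log2 fold change was -2.08 with an SE of 0.43 (edgeR adjusted p = 0.00488).

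Nkg7 (gene ID 72310; GRCm38.p6 chromosome 7, 43437138 to 43438246, plus strand), a protein of cytotoxic granule membranes, had the most counts of the 3 cytotoxic markers. It held 8, 10 and 7 counts in cisplatin, against 51, 29 and 65 in controls. The lowest control was well above the highest cisplatin library. The means were 0.435 ± 0.062 CPM in cisplatin and 2.98 ± 1.14 CPM in controls (SD, n = 3 each), and the log2 fold change was -2.75 with an SE of 0.38 (edgeR adjusted p = 0.000728). Cd3g, Cd2 and Nkg7 were called lower in every alternative in which they were tested.

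Gzma (gene ID 14938; GRCm38.p6 chromosome 13, 113093824 to 113100981, minus strand), which encodes the serine protease granzyme A, had 4, 1 and 1 counts in cisplatin, against 10, 7 and 14 in controls. All 3 cisplatin libraries were below the lowest control. The pooled ratio was 0.165 (exact 95% interval 0.0563 to 0.401, counting error only). Gzma lies within the span of Cdc20b on the opposite strand, and the strand setting of the counting is not given in the sources used here. Cdc20b held 3, 1.72 and 2 counts in cisplatin and 0 in all 3 controls.

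Klrk1 (gene ID 27007; GRCm38.p6 chromosome 6, 129610323 to 129623903, minus strand), the NKG2D receptor gene, had 4, 8 and 4 counts in cisplatin, against 11, 9 and 14 in controls. The groups did not overlap, though cisplatin replicate 2 and control replicate 2 were 1 count apart. The pooled ratio was 0.401 (exact 95% interval 0.207 to 0.747). Without the count filter, edgeR gave an adjusted p of 0.0102 for Gzma and 0.0512 for Klrk1.

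Counted on CPM over all 10 markers, tested or not, the groups did not overlap in 8. Among the 6 tested it was 5, against 28.4% of all genes tested that were lower without overlap. The count depends on the scaling. On the authors' FPKM, Lck (0.98 in cisplatin replicate 2, 0.86 in control replicate 2) and Klrk1 (0.27 and 0.26) overlapped too. For each of the 8 without overlap on CPM, a two-sided exact permutation test of mean log2(CPM + 0.5) had p = 0.1. That is the smallest that 3 against 3 libraries allow, and groups without overlap always give it, so it adds no support.

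**Figure D2:**
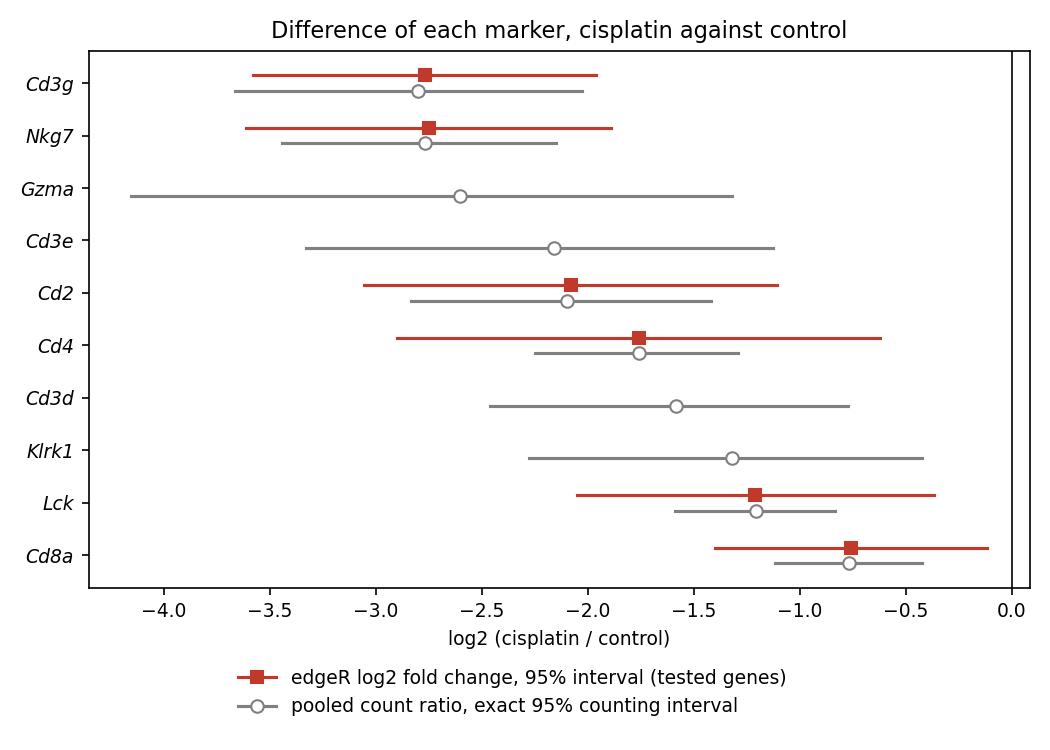
Log2 ratio of cisplatin over control (horizontal axis) for each marker: red squares, edgeR log2 fold changes with 95% intervals for the 6 tested genes; open circles, pooled count ratios with exact 95% counting intervals for all 10. Cd3g (-2.77) and Nkg7 (-2.75) lie farthest below 0 among tested genes and Cd8a (-0.76) nearest to it.

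The order of the markers by length-scaled level (the authors' FPKM) was not the same in the groups. In cisplatin, Lck was highest (0.833 ± 0.145 FPKM), followed by Cd8a (0.713 ± 0.17) and Nkg7 (0.60 ± 0.098). In controls, Nkg7 was highest (3.73 ± 1.46 FPKM), followed by Cd3g (1.91 ± 0.55) and Lck (1.78 ± 0.81). Among these leading genes, neighbours in the order lay within their spread in cisplatin, and so did Cd3g and Lck in controls. The lowest were Cd3e in cisplatin (0.13 ± 0.12 FPKM) and Klrk1 in controls (0.41 ± 0.13 FPKM; SD, n = 3 each throughout).

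In the summed level of the markers, the controls differed among themselves more than the cisplatin libraries did. Over all genes it was the cisplatin libraries that differed more, with a chi-square per degree of freedom of 16.0 to 53.2 between pairs of cisplatin libraries and 8.66 to 13.3 between pairs of controls. Summed over the 10 markers, the level was 6.11, 6.79 and 6.82 CPM in cisplatin replicates 1 to 3 and 20.2, 11.6 and 28.1 CPM in control replicates 1 to 3. Control replicate 2 had the lowest control level in 10 of 10 markers and control replicate 3 the highest in 9 of 10. Leaving out control replicate 3 reduced the markers called lower to 3 of 6 tested, and leaving out control replicate 2 gave 9 of 10 tested.

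Of 28 other genes of the T cell receptor complex, co-receptors and proximal signalling, 18 were tested, 10 were lower in cisplatin and none was higher in edgeR (0 higher also at an unadjusted p under 0.05, in DESeq2 and in limma on FPKM); their median log2 fold change was -1.11. Here and in the lists that follow, a gene could pass the filter through the controls alone (or through cisplatin alone), so counts and medians of the tested genes are descriptions, to be read against the 22.2% of all genes called lower and the 23.1% called higher. Skap1, an adaptor that links the receptor to adhesion, had 7, 7 and 4 counts in cisplatin and 28, 18 and 38 in controls (log2 fold change -2.43, edgeR adjusted p = 0.00171). Lat, the membrane scaffold of the pathway, had 9, 13 and 6 counts in cisplatin and 35, 20 and 54 in controls (-2.18, edgeR adjusted p = 0.00453). Cd5, an inhibitory surface receptor, was lower by the same test (-1.89, edgeR adjusted p = 0.0216), a call lost without cisplatin replicate 2 or control replicate 3 (at most 0.0857). Cd247, the zeta chain of the receptor complex, averaged 1.34 ± 0.29 CPM in cisplatin and 3.08 ± 1.1 CPM in controls (-1.19, edgeR adjusted p = 0.0134). Zap70, the kinase that LCK activates, had a log2 fold change of -0.96 and was not called (edgeR adjusted p = 0.0581). The 10 lower genes include Prkcq (11.5 ± 1.03 CPM in controls) and Rasgrp1 (11.8 ± 0.45 CPM). Both stood above the highest control mean of a marker, 3.67 CPM for Lck, and their controls were less spread than those of Lck. Whether cells other than lymphocytes supply their RNA was not tested.

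The genes of NK receptors, their adaptors and cytotoxic granules were mostly too low to test: 7 of 26 passed the filter, 3 of them lower and 2 higher in cisplatin, with a median log2 fold change of -0.12. Gzmb, which encodes granzyme B, had 8, 7 and 6 counts in cisplatin and 40, 10 and 43 in controls (log2 fold change -2.36, edgeR adjusted p = 0.0101). Ctsw, a cathepsin gene of cytotoxic lymphocytes, was lower as well (-1.71, edgeR adjusted p = 0.0290), a call lost by limma on FPKM and without any cisplatin replicate or control replicate 1 or 3 (at most 0.0955). Perforin, Prf1, was under the filter with 5.41, 7 and 1 counts in cisplatin and 12, 7 and 9 in controls. Hcst, the adaptor through which NKG2D signals, had 2, 6 and 3 counts in cisplatin and 7, 10 and 18 in controls. Of the 26 genes, tested or not, 20 had a lower mean in cisplatin. Among the untested, exact 95% intervals lay below 1 for Hcst (pooled ratio 0.268), Prf1 (0.396), Cd7 (0.351), Gzmk (0.206), Ifng (0.189) and Xcl1 (0.142). These intervals cover counting error only, and Cd7, Gzmk, Ifng and Xcl1 were named after their values were seen. Several untested NK receptor genes, also named after their values were seen, had overlapping groups and ratio intervals that included 1. Klrd1, the CD94 partner chain of NKG2 receptors, had 4, 4 and 6 counts in cisplatin and 2, 5 and 8 in controls, a pooled ratio of 0.795 (exact 95% interval 0.356 to 1.77). Klrb1c, which encodes the NK1.1 antigen, had 5, 2 and 6.36 counts in cisplatin and 5, 1.91 and 4.38 in controls, a pooled ratio of 1.01 (0.416 to 2.48). Cd244a, a receptor for CD48, had 10, 12 and 9 counts in cisplatin and 6, 2 and 11 in controls, a pooled ratio of 1.39 (0.761 to 2.60). The ratio was 0.93 for Klrc1 and 0.852 for Klrb1b. Other untested receptor genes of the list were sparser, with at most 9 pooled counts in a group. Klre1 (0.568) and Klri2 (0.757) had ratios under 1, and Klrc2 (4.26) had one over 1. Klrg1 had 0 counts in every cisplatin library and 2, 1 and 1 in controls, so its groups did not overlap. Ncr1 had 0 counts in cisplatin and 0, 2 and 0 in controls. The intervals of these sparser genes also included 1. Tyrobp, an adaptor that myeloid cells share with NK cells, averaged 8.85 ± 0.76 CPM in cisplatin and 9.62 ± 1.65 CPM in controls and was not called (log2 fold change -0.12, edgeR adjusted p = 0.543).

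The 2 genes of that list that were higher were Gzmm and Serpinb9. Gzmm, which encodes granzyme M, had 19, 21 and 28 counts in cisplatin and 7, 6 and 5 in controls (log2 fold change 1.68, edgeR adjusted p = 0.00569). Its direction was opposite to that of Gzma and Gzmb. Serpinb9, a protease inhibitor that blocks granzyme B, averaged 73.0 ± 22.6 CPM in cisplatin and 23.5 ± 1.7 CPM in controls (1.64, edgeR adjusted p = 0.00107); it is also made by cells other than lymphocytes.

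Among 16 transcription factors of T and NK cells, 13 were tested, 5 were lower and 3 higher (median log2 fold change -0.45). Ikzf3, a lymphocyte zinc finger factor, had a log2 fold change of -1.48 (edgeR adjusted p = 0.0237; lost on log2(FPKM + 1) and without cisplatin replicate 1 or 2 or control replicate 1 or 3) and Lef1, a factor of naive T cells, one of -1.33 (0.0268; lost by DESeq2 and without cisplatin replicate 1 or 3 or control replicate 1 or 2). Nfil3, needed for NK cell development but also expressed in many other cells, was higher, with 12.5 ± 1.4 CPM in cisplatin and 4.24 ± 0.90 CPM in controls (1.56, edgeR adjusted p = 0.000302).

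Of 20 trafficking and cytokine receptor genes of lymphocytes, 12 were tested, 4 were lower and 2 higher (median log2 fold change -0.22). Cxcr3, a chemokine receptor of effector T cells, had 10, 17 and 9 counts in cisplatin and 39, 25 and 57 in controls (log2 fold change -1.97, edgeR adjusted p = 0.00404). Cd44, an adhesion receptor that injured epithelium also makes, was higher, with 329, 573 and 98.99 counts in cisplatin and 39, 32 and 44.92 in controls (2.85, edgeR adjusted p = 0.0108). Il2ra, the interleukin-2 receptor alpha chain, was higher too (1.12, edgeR adjusted p = 0.0374), a call lost without cisplatin replicate 1 or 3 or control replicate 1 or 2 (at most 0.127). Taking these 4 lists together, 50 of 90 genes were tested, 22 were lower and 7 higher; the calls of higher genes among transcription factors (3 of 13) and trafficking genes (2 of 12) were near or under the 23.1% of all genes. The number lower was 11 without cisplatin replicate 1, 14 without control replicate 1 and 10 without control replicate 3.

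**Figure D3:**
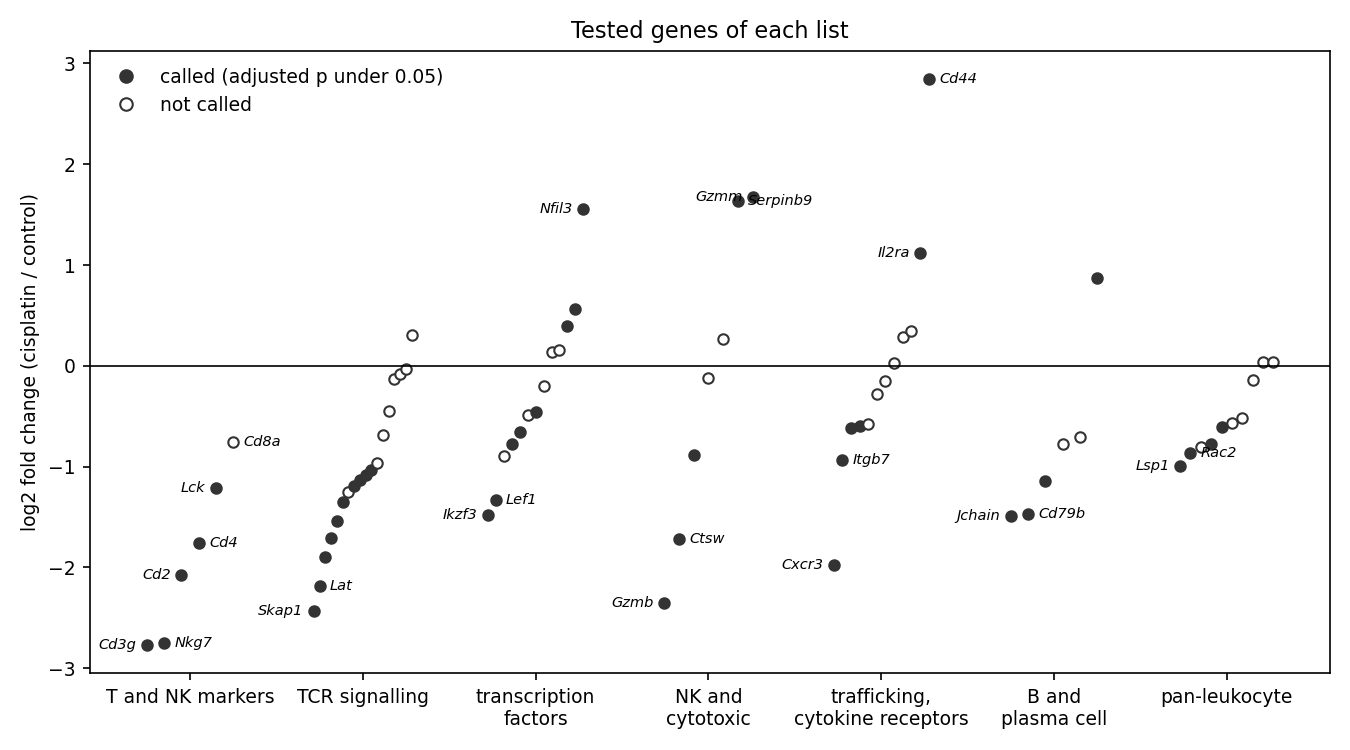
Log2 fold change, cisplatin over control (vertical axis), of every tested gene of 7 lists; filled points were called at an adjusted p under 0.05, and the markers and some called genes are named. The T cell receptor list has 10 filled points below 0 and none above, while Gzmm (1.68), Serpinb9 (1.64) and Cd44 (2.85) stand above 0 in the other lists.

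Most genes for ligands of the receptors encoded by the markers were sparse, and 2 of 7 found in the table were tested. Il16, a cytokine that binds CD4, was lower, with 2.98 ± 0.31 CPM in cisplatin and 6.60 ± 1.18 CPM in controls (log2 fold change -1.15, edgeR adjusted p = 0.00172). Cd48, the ligand of CD2 in mice, was not called (-0.81, edgeR adjusted p = 0.0782). Raet1e, a stress ligand of NKG2D named here after its values were seen, was under the filter with 25.43, 27.92 and 9 counts in cisplatin and 3, 0 and 1 in controls. Its pooled ratio was 13.2 (exact 95% interval 4.91 to 49.996, counting error only), in the opposite direction to Klrk1. For the other NKG2D ligand genes of the list, every exact 95% interval included 1. Their pooled ratios were 0.947 for Ulbp1 (0.476 to 1.90) and 1.28 for H60b (0.406 to 4.36). H60c had 0.426 (0.0385 to 2.97) and Raet1d 0.852 (0.0618 to 11.8). The interval of Raet1d, from 2 pooled counts in each group, overlapped that of Raet1e, so it cannot show whether Raet1d shared the rise. Genes of the Raet1 family are near-identical, and reads may be split among them.

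Other blood and immune cell genes did not all move with the markers. Of 6 B and plasma cell genes tested, 3 were lower and 1 higher: Jchain, the joining chain of antibodies (log2 fold change -1.49, edgeR adjusted p = 0.00193), Cd79b of the B cell receptor (-1.47, 0.0463) and Cd37 (-1.14, 0.0232) were lower, and Mzb1, a chaperone of antibody-secreting cells, was higher (0.87, 0.0401). The call of Cd79b was lost with library size scaling, by limma on log2(FPKM + 0.1) and without cisplatin replicate 1 or any control. That of Cd37 was lost by limma on either FPKM scale and without cisplatin replicate 1 or control replicate 1 or 3. That of Mzb1 was lost with the replicate block, by limma on log2(FPKM + 1) and without cisplatin replicate 1 or 2 or any control. Of 10 genes shared by most leukocytes, 4 were lower and none higher in edgeR (0 at an unadjusted p under 0.05 and in DESeq2), with a median log2 fold change of -0.59. Ptprc, which encodes CD45, averaged 6.84 ± 0.14 CPM in cisplatin and 11.8 ± 3.9 CPM in controls (-0.78, edgeR adjusted p = 0.0308; lost with library size scaling, by limma on FPKM and without any cisplatin replicate or control replicate 1 or 3). Lsp1, a cytoskeletal protein of leukocytes, was lower as well (-0.99, edgeR adjusted p = 0.00581), as was Rac2, a GTPase of blood cells (-0.87, 0.0343; lost under the same settings and with the replicate block).

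Set against the 10 shared leukocyte genes, a separate list that holds none of the markers, the markers were lower in cisplatin kidneys. Their summed CPM came to 5.30%, 5.01% and 5.56% of the sum of that list in cisplatin replicates 1 to 3, against 12.6%, 9.06% and 13.5% in control replicates 1 to 3. No cisplatin library reached the lowest control. The sum of that list came in large part from Laptm5 (33.3 CPM in cisplatin, 32.4 CPM in controls) and Arhgdib (23.8 and 26.4 CPM). Neither of these was called, while 4 of the 10 genes of that list were called lower. The percentages are a ratio between 2 lists, not a share of leukocyte RNA or of cells.

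Macrophage and monocyte genes were split, with 4 higher and 3 lower of 11. Cd68, a lysosomal protein of macrophages, was higher (78.0 ± 13.9 CPM in cisplatin and 9.47 ± 1.39 CPM in controls; log2 fold change 3.04, edgeR adjusted p = 1.23e-05), as was Cd14 (2.07, 0.00161). Ly6c2, of inflammatory monocytes, was lower (-1.85, edgeR adjusted p = 0.00760). So were Csf1r (-0.78, 0.000285) and Ccr2 (-0.82, 0.0158; lost without cisplatin replicate 1 or control replicate 3). The summed level of the list was 301 ± 30 CPM in cisplatin and 222 ± 23 CPM in controls, and Cd68 made up much of that difference. Of 5 neutrophil genes tested, 3 were higher, namely the calprotectin genes S100a8, with 14, 17 and 20 counts in cisplatin and 0, 6 and 0 in controls (2.79, edgeR adjusted p = 0.0228; lost without cisplatin replicate 1 or control replicate 1 or 3), and S100a9 (2.08, 0.00911), and the receptor gene Csf3r (0.76, 0.0189; lost with the replicate block and without cisplatin replicate 1 or 2 or control replicate 2). The other tested neutrophil genes, Cxcr2 (-0.39, edgeR adjusted p = 0.0981) and Ly6g (-0.30, 0.604), pointed lower and were not called. For Cxcr2 every cisplatin library lay below every control. Of 8 dendritic cell genes tested, 1 was lower, Cd209a (-1.38, edgeR adjusted p = 0.0476; lost with library size scaling, by limma on FPKM and without cisplatin replicate 1 or 2 or control replicate 1 or 3).

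Red blood cell genes were lower in 6 of 6 in edgeR. The calls of the 4 globin genes were lost when cisplatin replicate 2 or 3 was left out (at most an edgeR adjusted p of 0.143, for Hbb-bt), and those of Hba-a2 and Hbb-bt also without the count filter, while those of Alas2 and Slc4a1 held in all 13 alternatives. Their summed level was 24.0, 28.1 and 29.4 CPM in cisplatin, most of it from Slc4a1, which kidney intercalated cells also express, and 784, 343 and 117 CPM in control replicates 1 to 3. Hbb-bs, a beta globin gene with a near-identical copy, had 2, 0 and 5 counts in cisplatin and 4449.72, 1687.36 and 303.13 in controls, and Hba-a2 had 0 counts in all 3 cisplatin libraries. Control replicate 3, with the least red blood cell signal of the controls, had the highest marker level (28.1 CPM), and control replicate 1, with the most, stood between the other 2 (20.2 CPM). The part of circulating blood in the marker difference was not tested. Tubule genes, which mark the labelled tissue, were at a high level in every library, and 7 of 8 were lower in cisplatin, among them Slc34a1, the phosphate transporter of the proximal tubule (1850 ± 811 CPM in cisplatin, 8032 ± 344 CPM in controls), Slc12a3 (log2 fold change -1.90) and Slc12a1 (-1.57).

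**Figure D4:**
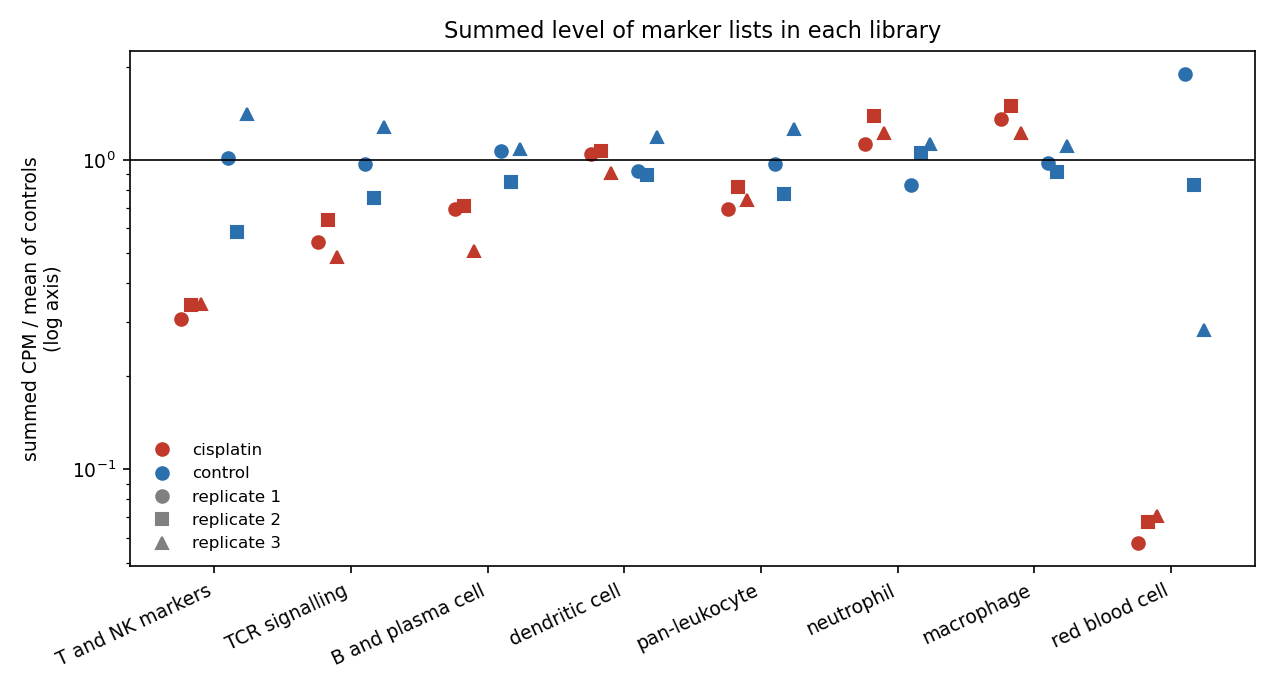
Summed CPM of 8 marker lists in each library, divided by the mean of the controls (vertical log axis); red, cisplatin, and blue, controls, with symbols for the replicate. The T and NK markers lie below every control in all 3 cisplatin libraries, the macrophage sums lie above every control, and the dendritic cell sums overlap. Cd68 (78.0 CPM in cisplatin, 9.47 CPM in controls) makes up much of the macrophage difference.

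By a fixed measure of likeness, the genes whose pattern over the 6 libraries came closest to that of Nkg7 were Btnl9, Ptprcap and Ltbp1. The measure was the root mean square distance between mean-centred log2(CPM + 0.5) values, an offset that compresses changes of low genes such as Nkg7. It was searched over 13663 genes with at least 1 CPM on average, and the distances were 0.19, 0.19 and 0.21 log2 units. Ptprcap, which encodes a CD45-associated protein of lymphocytes, averaged 0.559 ± 0.005 CPM in cisplatin and 2.61 ± 1.16 CPM in controls. Cd3e was under the filter, so no such search was made for it.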

How the data were processed

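RNA of 6 kidney libraries was aligned with HISAT to GRCm38.p6, per the submitters' processing notes; the counting program, annotation and strandedness were not given in the sources used here. Estimated counts, FPKM and TPM per gene were deposited by the authors, as named in the file headers. The deposited estimated counts were not normalized (66.2% to 67.7% of values whole per library; 8 of 10 markers whole throughout) and summed to between 16725665 and 18523666. The FPKM deposited by the authors served for levels between genes and for limma; the deposited TPM entered no test. Control columns carry the letters wc, read as wild-type control.

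Estimated counts were rounded and filtered with filterByExpr (minimum count 10), which left 14392 genes, then scaled with TMM factors and compared with edgeR 4.0.16 (R 4.3.3, robust quasi-likelihood F test, group as the only term, two-sided, Benjamini-Hochberg over all genes, called under 0.05). SE is the absolute log2 fold change over the square root of F. Pooled ratios carry exact (Clopper-Pearson) 95% intervals that cover counting error only. The fit was tested on simulated data. Alternatives used DESeq2 1.42.0, limma 3.58.1, other filters and scaling, a replicate block and each library left out. Lists and naming rule (up to 3 called genes of largest change per list whose higher group averaged 0.5 CPM or more, called genes of the rarer direction, and some fixed partners) and the markers themselves were chosen with earlier results of these data known.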

Additional observations from a re-analysis of the deposited data

How the results depend on the processing

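The markers called lower numbered 5 of 6 tested, and 3 of 6 by limma on log2(FPKM + 1), a scale that compresses changes of low genes; leaving out 1 library at a time gave between 3 and 9, the lowest without control replicate 3 and the highest without control replicate 2, where 10 were tested (10 also without each cisplatin replicate, with 5 to 6 called). Other settings gave 4 to 7, and none gave a marker called higher. The 22 T and NK genes of the 4 further lists called lower became 14 with scaling to library size, 14 with at least 1 CPM in at least 3 libraries (37 genes tested), 12 and 11 by limma on log2(FPKM + 0.1) and log2(FPKM + 1), and between 10 and 28 with 1 library left out. Scaling to library size moved the median log2 fold change of all genes to 0.14 and gave 4632 higher and 2281 lower genes of 14392 (67.0% higher), against 3326 and 3201 (51.0% higher) with TMM; relative to that median the tested markers were still lower. Among the tested genes of all lists no call changed direction.

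The replicate block, which takes equal replicate numbers as pairs, gave 5 markers called lower and 16 of the further genes lower; over all genes it gave 2822 higher and 2739 lower. Deviations from the group means of same-numbered libraries correlated at 0.03, -0.14 and -0.14. For libraries with unlike numbers the correlations ran between -0.02 and 0.17. The deviations thus gave no sign of pairing by number, but with 3 libraries per group they cannot exclude a shared origin. The 4 untested markers held 6 to 18 pooled counts in cisplatin and 31 to 46 in controls, where small differences were not detectable at this depth. The causes of these shifts were not tested.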

Other observations

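Some lymphocyte genes under the count filter, named after their values were seen, had the same direction as the markers. Cxcr6, a chemokine receptor of tissue-resident T and NK cells, had 5, 3 and 8 counts in cisplatin and 27, 9 and 38 in controls, a pooled ratio of 0.184 (exact 95% interval 0.100149 to 0.319, counting error only). Cd96, a receptor of T and NK cells that binds nectin family ligands, had 0, 3 and 1 counts in cisplatin and 12, 6 and 11 in controls, a pooled ratio of 0.118 (exact 95% interval 0.0300218 to 0.335). The groups did not overlap in either gene. Neither has an adjusted p with the filter in place.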
